A study of Mus musculus with 12 samples.

Results

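Coelomic epithelial progenitors were examined in the gonads of mouse embryos that lack the -KTS form of the transcription factor WT1. They were chosen by counts of unique molecular identifiers (UMIs, each marking 1 captured RNA molecule): at least 2 UMIs of Upk3b, at least 2 UMIs of Lhx9, Krt19 and Aldh1a2 together, at most 1 UMI of Pdgfra and fewer than 10 UMIs of the germ cell genes Dppa5a, Pou5f1, Ddx4 and Dazl, in cells with at least 1000 detected genes and at most 10% mitochondrial UMIs. This gave 4576 of 23258 kept cells in the -KTS KO, 2810 cells in wild type (WT) and 2189 cells in the +KTS KO, and 9575 of the 83513 kept cells of the series. The libraries were 10x Genomics single-cell libraries of whole gonads at embryonic day 12 (tail somites 23 ± 3 per the labels), 2 for each of the 6 groups XX WT, XY WT, XX -KTS KO, XY -KTS KO, XX +KTS KO and XY +KTS KO. The -KTS KO embryos were homozygous for the allele that abolishes -KTS, and the +KTS KO embryos were homozygous for the allele that abolishes +KTS, which models Frasier syndrome. Both alleles are germline, so every cell of a mutant embryo carries them, all embryos were on a mixed B6CBAF1/JRj background, and the gonads were freed from the mesonephros before dissociation with trypsin. Most of the -KTS KO libraries pooled several embryos and their stages spread more widely than those of WT, so that stage and genotype cannot be told apart.

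The coelomic epithelium is the mesothelial sheet that covers the gonad. Its cells divide, lose contact with their neighbours and enter the gonad, where they give rise to supporting and interstitial cells. Upk3b (a uroplakin), Krt19 and Krt7 (keratins), Aldh1a2 (the enzyme that makes retinoic acid) and Lhx9 (a LIM homeobox factor needed for gonad growth) mark this layer. WT1 is a zinc finger protein present in mesothelia and in the somatic cells of the gonad, and its -KTS and +KTS forms come from a choice between neighbouring splice donor sites.

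The genotype turns on that choice, so both ends of the Wt1 exon are shown as the GENCODE vM21 transcripts give them. The exon starts at 105169926 on chromosome 2 (GRCm38, plus strand) and ends at 105170018 in the +KTS form and at 105170009 in the -KTS form, and both are joined to the coding exon that starts at 105172223. The capitals mark the 9 bases that only the longer form holds, which add lysine, threonine and serine between the last zinc fingers.
Wt1 +KTS: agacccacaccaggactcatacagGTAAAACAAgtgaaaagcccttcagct
Wt1 -KTS: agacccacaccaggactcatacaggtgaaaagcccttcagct

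The libraries count tags near the 3′ end of each transcript, so they do not separate the forms and do not check the genotype. Total Wt1 in the members was 251, 258, 202 and 250 CPM (counts of a gene relative to all UMIs summed over the members of a library, with TMM scaling) in the XX and XY WT libraries and 276, 258, 286 and 299 CPM in the XX and XY -KTS KO libraries. The difference of 0.22 ± 0.11 (SE) on the log2 scale did not pass the test (edgeR quasi-likelihood test, Benjamini-Hochberg adjusted p = 0.181). The sex labels were checked by Ddx3y, a Y-linked gene, with 37.6 to 56.1 CPM in the members of the XY WT and XY -KTS KO libraries and 0 UMIs in those of the XX ones.

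The members made up a larger share of the -KTS KO gonads than of the WT gonads. They were 20.3% and 16.2% of the kept cells in the XX -KTS KO libraries and 19.1% and 23.5% in the XY -KTS KO libraries. In WT they were 10.0% and 10.1% in XX and 10.1% and 6.97% in XY, so that the genotypes did not overlap. The means were 19.8% ± 3.01 (SD, n = 4) and 9.28% ± 1.54 (SD, n = 4), a difference of 10.5 percentage points (exact two-sided permutation test over 70 splits, p = 0.0286, the smallest this design allows). The +KTS KO libraries held 7.21% ± 0.908 (SD, n = 4). With germ, endothelial, immune and erythroid cells left out of the denominator, these means came to 22.8% ± 2.27 for the -KTS KO against 11.3% ± 1.44 for WT.

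**Figure D1:**
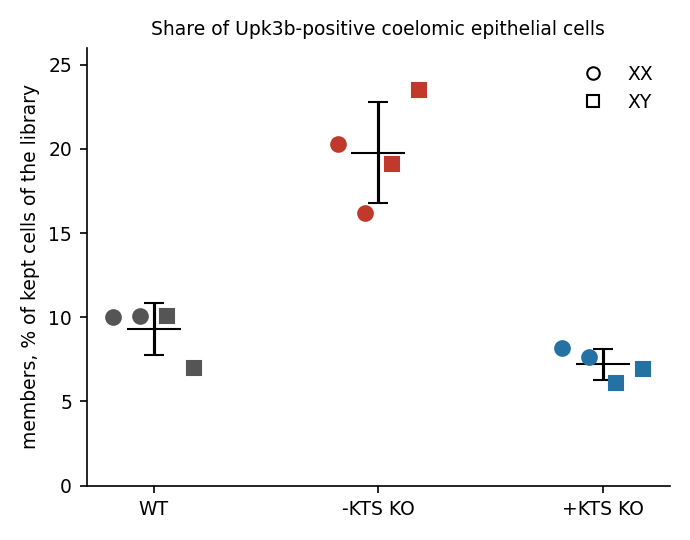
Share of the kept cells of each library that met the thresholds for coelomic epithelial progenitors, in percent (circles XX, squares XY, black bars mean ± SD over 4 libraries). The 4 -KTS KO libraries lie between 16.2% and 23.5% and all WT and +KTS KO libraries lie below them.

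The thresholds act on raw UMIs, and the median member held 16653 to 21797 UMIs in the -KTS KO libraries and 12615 to 18595 in the WT libraries. Its mitochondrial share was 1.75% to 2.17% in the -KTS KO libraries and 2.49% to 2.82% in the WT libraries, and the part of this difference in the results was not tested. After every cell was thinned to 5000 UMIs before the thresholds were applied, the share was 9.62% ± 1.80 in the -KTS KO and 4.22% ± 0.815 in WT, and the genotypes again did not overlap (exact permutation test, p = 0.0286). Just outside the Upk3b threshold, 1027 -KTS KO cells and 927 WT cells with 1 UMI met all the other thresholds, and just inside it 624 and 617 cells with 2 UMIs did. As a mean share of the kept cells these were 4.41% in the -KTS KO and 3.08% in WT with 1 UMI, and 2.69% and 2.03% with 2 UMIs. Cells with 4 or more UMIs numbered 3397 in the -KTS KO and 1669 in WT, or 14.7% and 5.55% of the kept cells.

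The label was checked with mesothelial genes that the thresholds did not use, in the members and in the other somatic cells of the same -KTS KO libraries. As a description with no test, Krt7 was 41.3 CPM in the members and 9.06 CPM in the others, Upk1b 10.3 and 0.933 CPM, Lrrn4 22.6 and 2.78 CPM, Bnc1 25.3 and 5.89 CPM and Podxl 55.6 and 19.4 CPM. Upk1b did not mark the members of every library. In members with 4 or more Upk3b UMIs it was 8.11 and 0 CPM in XX and 27.6 and 9.71 CPM in XY -KTS KO replicates 1 and 2. Krt8 (54.6 and 76.2 CPM) and Nkain4 (17.5 and 21.1 CPM) were lower in the members, and Msln and Muc16 were at or near 0 in both. Wt1 (278 and 290 CPM), Nr5a1 (14.2 and 17.6 CPM) and Tcf21 (329 and 343 CPM) were lower in the members as well. Rspo1 (253 and 224 CPM), Pdpn (73.3 and 64.3 CPM), Gata4 (92.0 and 77.7 CPM), Krt18 (123 and 94.1 CPM) and Emx2 (205 and 131 CPM) were somewhat higher. Tm4sf5 (a tetraspanin-like membrane protein), Myl7 (a myosin light chain), Ezr and Hpgd also led the members. So did haemoglobin RNA: Hbb-y was 1147 CPM in the members and 147 CPM in the others, against 957 and 374 CPM in WT. The others left out all cells that met an erythroid, endothelial or immune gate, whereas the members kept theirs. This gap is therefore partly built in and is not read as a trait of the members. After thinning, 18.6% to 33.8% of the members of the -KTS KO libraries had a Hbb-y UMI. In the WT libraries 51.3% to 84.5% of the members did, so that the order of the genotypes was opposite to that of the sums. Of the members, 10 of 4576 in the -KTS KO and 8 of 2810 in WT met an erythroid gate, and the part of haemoglobin RNA from other cells in these values was not tested.

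The genes whose UMIs the thresholds required are given as levels only. Upk3b was 292, 347, 349 and 379 CPM in the -KTS KO libraries and 306, 261, 313 and 267 CPM in WT, and the ranges overlapped. Aldh1a2 was 190 to 226 CPM in the -KTS KO and 200 to 221 CPM in WT. Lhx9 was 421 to 520 and 361 to 568 CPM. Krt19 lay between 35.3 and 41.2 CPM in the -KTS KO, while in WT it was 73.5 and 74.8 CPM in XX and 42.8 and 25.9 CPM in XY.

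Across all genes, 3081 of 14182 tested differed between -KTS KO and WT members over both sexes (21.7%), 1498 of them higher in the -KTS KO (10.6%) and 1583 lower (11.2%). Of 17 tested coelomic epithelial genes that the thresholds did not use, 5 rose and 4 fell, with a median log2 difference of 0.14 against 0.01 over all genes. Krt7 was 50.4, 41.3, 40.6 and 35.2 CPM in the -KTS KO libraries and 120, 101, 153 and 97.8 CPM in WT. All -KTS KO values lay below all WT values, a fall of 2.83-fold (adjusted p = 2.74e-05). Podxl, a sialomucin of the apical surface, fell from 109 ± 34.5 to 56.4 ± 10.3 CPM (SD, n = 4 each, adjusted p = 0.000313). Muc16, the large mesothelial mucin known as CA125, had 591 UMIs in the WT members (9.35, 14.3, 11.6 and 12 CPM) and 0 UMIs in the 4576 -KTS KO members. Measured against a floor of 3 counts over the whole group, Muc16 was at least 385-fold lower (adjusted p = 2.28e-07). Tm4sf5, named here after its values were seen, fell from 286 ± 46.7 to 98 ± 22.1 CPM (adjusted p = 5.45e-05).

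Other genes of the layer moved the other way. Rspo1, a secreted amplifier of WNT signalling, was 139, 116, 97.9 and 83.2 CPM in WT and 254, 262, 266 and 248 CPM in the -KTS KO, a rise of 2.39-fold with no overlap (adjusted p = 9.72e-05). Ezr, which links apical membranes to actin and was named after its values were seen, rose from 105 ± 25.9 to 250 ± 33.7 CPM (adjusted p = 1.21e-05). Nkain4 rose from 4.85 ± 1.23 to 17.4 ± 5.6 CPM (adjusted p = 0.000753). Krt18, Emx2 and Gata4 also passed the test, with log2 differences of 0.58, 0.37 and 0.47, but Krt18 passed in only 6, Emx2 in 5 and Gata4 in 13 of 15 alternative settings. Nr5a1, the orphan receptor needed for gonad formation, fell by 0.70 on the log2 scale (adjusted p = 0.0102) and passed in 13 of 15.

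**Figure D2:**
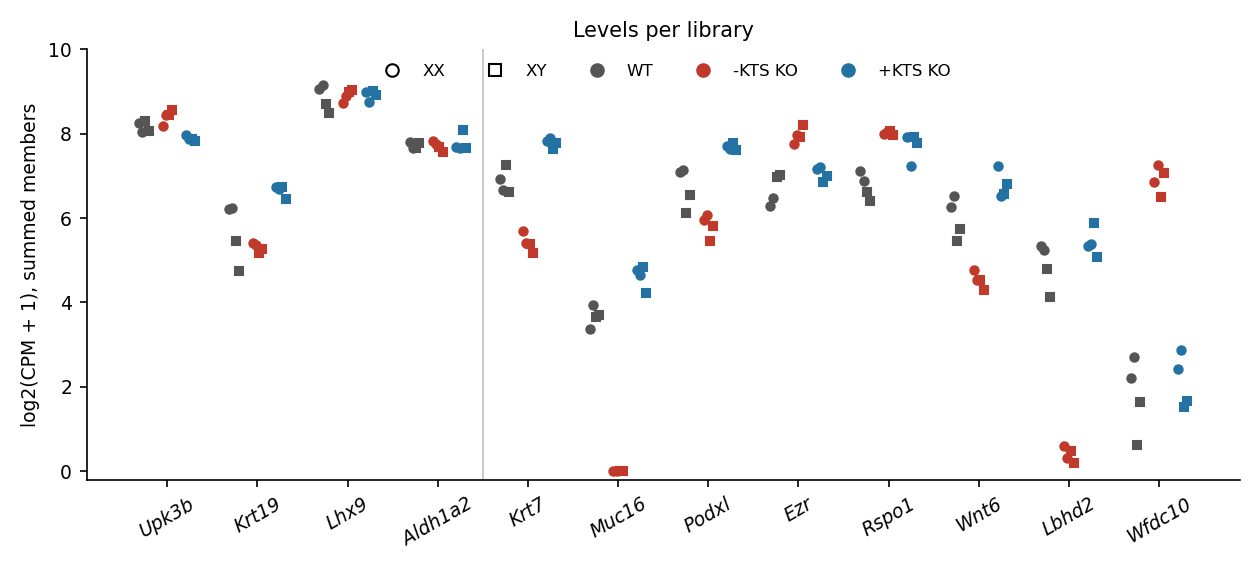
Levels of 12 genes in the summed members of each library, as log2(CPM + 1) (circles XX, squares XY, colours for genotype), with the 4 genes that chose the cells left of the grey line. Upk3b, Krt19, Lhx9 and Aldh1a2 overlap between WT and -KTS KO over both sexes. Muc16 is at 0 in all 4 -KTS KO libraries, and Wfdc10 is at 89.7 to 152 CPM there against at most 5.56 CPM in WT.

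The share of members with a UMI was counted for the same genes. After members were thinned to 5000 UMIs, 15.4% ± 1.43 of the -KTS KO members and 40.9% ± 4.81 of the WT members had a Krt7 UMI (mean ± SD over 4 libraries). Muc16 was seen in 0% and 5.63% ± 0.987, and Rspo1 in 68.8% ± 2.09 and 41.0% ± 6.79. In endothelial-gated cells of the same libraries, which should lack these genes, the thinned shares were 0.667% and 0.501% for Krt7, 0% and 0% for Muc16 and 6.11% and 2.99% for Rspo1 in the -KTS KO and WT. Without thinning, Krt7 was seen in 38.0% and 72.5%, Muc16 in 0% and 16.8% and Rspo1 in 95.2% and 75% of the -KTS KO and WT members. Thinning left out 62 -KTS KO and 19 WT members with fewer UMIs.

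Promoter sequences are shown for Muc16, which was at 0, and for the pair of largest falls and the pair of largest rises that had an entry in the table. Each is the 250 bases before the start in RefSeq (GRCm38.p6, 5′ to 3′ on the strand of the gene). Capitals mark GCGNGGGNG, the letters bound by WT1 and EGR zinc fingers, or AGATAA (bound by GATA factors), on either strand.
Muc16 (chr9:18674604-18674853, minus strand): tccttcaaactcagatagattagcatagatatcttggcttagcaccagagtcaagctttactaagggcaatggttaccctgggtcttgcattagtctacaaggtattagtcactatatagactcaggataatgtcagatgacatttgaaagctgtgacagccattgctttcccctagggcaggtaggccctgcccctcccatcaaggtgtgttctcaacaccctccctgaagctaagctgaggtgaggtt
Lbhd2 (chr12:111406559-111406808, plus strand): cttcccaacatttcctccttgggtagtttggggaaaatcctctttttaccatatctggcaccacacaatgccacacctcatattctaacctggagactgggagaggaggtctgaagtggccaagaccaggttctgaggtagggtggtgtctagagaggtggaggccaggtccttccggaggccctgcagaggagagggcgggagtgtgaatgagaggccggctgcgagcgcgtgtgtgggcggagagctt
Aqp5 (chr15:99590778-99591027, plus strand): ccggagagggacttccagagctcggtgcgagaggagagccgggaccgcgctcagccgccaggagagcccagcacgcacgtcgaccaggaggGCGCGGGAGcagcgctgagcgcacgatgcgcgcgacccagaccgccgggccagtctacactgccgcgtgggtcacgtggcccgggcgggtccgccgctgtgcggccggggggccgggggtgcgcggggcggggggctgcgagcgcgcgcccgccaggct
Wfdc10 (chr2:164655796-164656045, plus strand): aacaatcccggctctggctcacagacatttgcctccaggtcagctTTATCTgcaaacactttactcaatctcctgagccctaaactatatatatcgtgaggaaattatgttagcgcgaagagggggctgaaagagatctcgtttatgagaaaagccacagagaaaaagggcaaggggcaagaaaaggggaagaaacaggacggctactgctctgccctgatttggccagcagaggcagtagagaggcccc
Tmem178 (chr17:80944382-80944631, plus strand): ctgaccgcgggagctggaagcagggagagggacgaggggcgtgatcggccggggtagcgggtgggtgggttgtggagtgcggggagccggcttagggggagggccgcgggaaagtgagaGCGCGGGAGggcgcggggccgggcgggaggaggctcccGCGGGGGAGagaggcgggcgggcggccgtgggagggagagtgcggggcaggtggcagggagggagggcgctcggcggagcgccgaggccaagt
The WT1- and EGR-type letters occurred in 1 of the 9 listed promoters of the 12 largest falls and in 2 of the 9 of the 12 largest rises, against 10.3% of all 27025 promoters. AGATAA occurred in 1 and 2 of them, against 10.3% of all.

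Among genes whose -KTS KO and WT libraries did not overlap and that reached 20 CPM, the 12 largest falls included Lbhd2, Aqp5, Ptgds, Cst9, Kcne1l, Rarres2, Shisa2, Nr0b1, Sp5, Aard and Nab2. Of these, Ptgds, Cst9 and Aard are on the list of Sertoli genes read below. That list summed to 24.9 and 19.0 CPM in the XX WT members and 324 and 243 CPM in the XY WT members. Lbhd2 was 39.6 and 37.0 CPM in the XX WT libraries, 26.8 and 16.6 CPM in their XY counterparts and 0.511, 0.247, 0.399 and 0.143 CPM in the -KTS KO libraries. The fall was 6.47 ± 0.31 (SE) on the log2 scale (adjusted p = 2.28e-07). Aqp5, a water channel, was 32.1 and 37.2 CPM in the XX WT libraries, 182 and 102 CPM in their XY counterparts and 0.998 to 1.73 CPM in the -KTS KO. It fell by 5.71 ± 0.25 (adjusted p = 1.16e-07). Rarres2, the adipokine chemerin, fell from 41.1 ± 7.44 to 3.98 ± 1.09 CPM and Nab2, a repressor partner of EGR factors, from 28.1 ± 5.47 to 3.57 ± 0.365 CPM (adjusted p = 2.28e-07 and 1.16e-07). Nr0b1, the X-linked receptor DAX1, was 15.9, 17.7, 28.8 and 38.1 CPM in WT and 1.14 to 4.71 CPM in the -KTS KO, a fall of 9.08-fold (adjusted p = 3.28e-06). Ptgds passed in only 10 of 15 alternative settings.

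The largest rises were Wfdc10, Rmst, Tmem178, Dnm3, Zfp385b, Cav1, Ecm1, Gm21814, Lbx2, Cd55, Capn6 and Ldb2. Wfdc10, a small protein with a whey acidic protein core, was 3.64, 5.56, 0.543 and 2.11 CPM in WT and 116, 152, 89.7 and 134 CPM in the -KTS KO. The rise was 5.70 ± 0.29 on the log2 scale (adjusted p = 4.2e-07). Its relatives Wfdc13 and Wfdc2 rose as well, by 4.06 and 2.61, while Wfdc1 fell with 146 UMIs in WT and 3 in the -KTS KO, a ratio of 95.2 (95% counting interval 31.9 to 467). Of 6 tested genes of this family, 3 rose and 1 fell. Rmst, a long non-coding RNA, rose from 4.22 ± 2.32 to 54.0 ± 5.72 CPM (adjusted p = 0.000279), Dnm3, a dynamin, from 4.38 ± 1.61 to 43.2 ± 4.35 CPM (adjusted p = 2.28e-07) and Cav1, the coat protein of caveolae, from 5.28 ± 2.42 to 43.1 ± 5.68 CPM (adjusted p = 0.000208). Wfdc10 was not confined to these cells: after thinning, 23.9% ± 4.04 of the -KTS KO members had a UMI, against 36.4% ± 4.15 of the other somatic cells and 7.14% ± 3.96 of the endothelial-gated cells of the same libraries. Without thinning the shares were 41.2%, 45.4% and 11.2%.

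Genes of the dividing cell were lower in the -KTS KO members than in the WT members. Of 24 S phase genes 16 fell, and of 24 G2 and M phase genes 21 fell, with medians of -0.49 and -0.70 on the log2 scale against 0.01 over all genes. Within XX, where 1040 of the tested genes passed (7.33%, with 3.25% higher and 4.08% lower), 9 and 11 of them fell, and within XY, where 2107 passed (14.9%, with 6.6% higher and 8.26% lower), 11 and 19 fell. All 48 values were negative in each sex, whether called or not. Ung, which removes uracil from DNA, fell from 46.3 ± 2.45 to 19.5 ± 1.07 CPM and Mcm5, part of the replicative helicase, from 75.2 ± 5.93 to 40.3 ± 1.44 CPM (adjusted p = 1.58e-05 and 5.51e-05). Cdk1, the mitotic kinase, was 246, 180, 315 and 235 CPM in WT and 131, 120, 149 and 100 CPM in the -KTS KO (adjusted p = 0.00195). After thinning, 19.3% ± 2.04 of the -KTS KO members and 35.7% ± 4.79 of the WT members had a UMI of Mki67, a marker of cycling cells. The endothelial-gated cells, which also divide, had 18.1% ± 4.30 and 31.1% ± 2.35. Without thinning, the members had 36.3% and 56.8%.

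Of 12 tested D cyclins and cell cycle inhibitors 2 rose, 2 fell and 8 did not pass (median -0.03). Those that fell were the D cyclins Ccnd1 and Ccnd2, which drive entry into the cycle. Ccnd1 was 65.7, 78.2, 104 and 83.8 CPM in WT and 26.1, 21.0, 22.5 and 13.5 CPM in the -KTS KO, a fall of 3.99-fold (adjusted p = 1.2e-05). Ccnd2 fell from 78.7 ± 14.0 to 17.1 ± 7.16 CPM, or 4.85-fold (adjusted p = 6.7e-06). The inhibitor Cdkn1c was 638 and 767 CPM in the XX WT libraries, 362 and 379 CPM in their XY counterparts and 667 to 879 CPM in the -KTS KO. It rose by 0.60 over both sexes (adjusted p = 0.00593), but by 0.14 in XX, which did not pass (adjusted p = 0.742). The difference of the effects between the sexes did not pass either (adjusted p = 0.161). The other rise, of the inhibitor Cdkn1b, was 0.34 over both sexes (adjusted p = 0.0425) and passed in 4 of 15 alternative settings. Within XX its difference was -0.05 (adjusted p = 0.92).

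**Figure D3:**
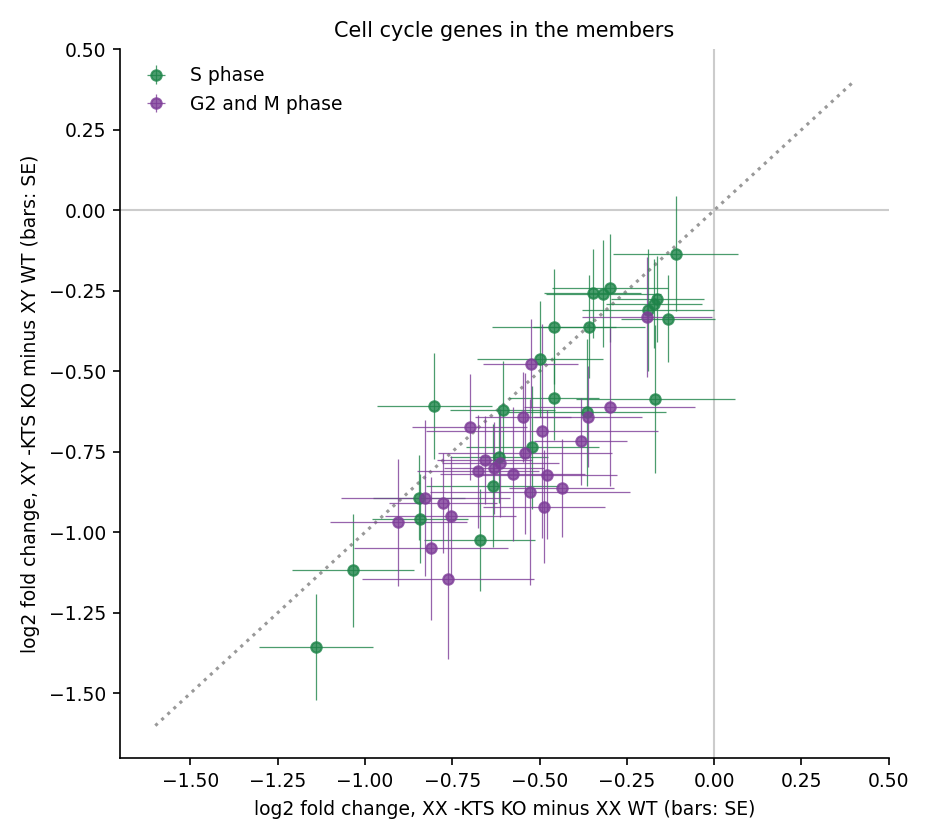
Log2 fold change of 24 S phase and 24 G2 and M phase genes in the summed members, -KTS KO against WT, in XX (horizontal axis) and XY (vertical axis), with SE bars and a dotted line of equal change. All 48 points lie below 0 on both axes.

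Signalling genes were read by pathway. Over all genes 10.6% were higher and 11.2% lower in the -KTS KO, and the count of each list is to be set against these shares. Of 42 tested WNT and R-spondin genes 10 rose and 8 fell (median 0.09). Among ligands Wnt6 was 75.5, 91.3, 42.8 and 52.3 CPM in WT and 26.2, 22.2, 22.1 and 18.6 CPM in the -KTS KO, a fall of 2.84-fold (adjusted p = 5.12e-05). Wnt4, which the ovary needs, was 65.0 and 110 CPM in the XX WT libraries, 10.6 and 15.4 CPM in their XY counterparts and 189, 68.4, 153 and 62.9 CPM in the -KTS KO. It passed (1.81 ± 0.46, adjusted p = 0.0277), but only in 7 of 15 alternative settings. Frzb, a secreted WNT inhibitor, rose from 1.07 ± 0.605 to 12.6 ± 0.733 CPM (adjusted p = 0.000204). Among genes that WNT signalling is known to induce, Sp5 was 110 and 112 CPM in the XX WT libraries, 16.7 and 31.0 CPM in their XY counterparts and 2.67 to 12.6 CPM in the -KTS KO, a fall of 3.09 ± 0.43 (adjusted p = 0.00162). Tcf7 fell from 16.3 ± 2.76 to 6.49 ± 1.45 CPM (adjusted p = 9.72e-05). Axin2 was 27.0, 38.9, 9.16 and 13.4 CPM in WT and 22.1, 21.3, 10.3 and 12.8 CPM in the -KTS KO and did not pass (adjusted p = 0.364). Tcf7 and Axin2 were named after their values were seen.

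Of 33 tested BMP and TGF-beta genes 4 rose and 7 fell (median 0.01), against 10.6% higher and 11.2% lower over all genes. Inhbb, an activin subunit, was 17.4, 20.2, 17.4 and 22.5 CPM in WT and 3.35 to 4.99 CPM in the -KTS KO, a fall of 4.89-fold (adjusted p = 2.36e-07). The ligand Bmp4 was 6.53 and 6.43 CPM in the XX WT libraries, 29.5 and 17.7 CPM in their XY counterparts and 2.53 to 5.78 CPM in the -KTS KO (-1.75 ± 0.24, adjusted p = 0.000303). Its effect was larger in XY (difference -2.33 ± 0.47, adjusted p = 0.0485), which passed in 8 of 15 alternative settings. Bmp7 fell from 11.1 ± 3.32 to 3.39 ± 0.823 CPM and Id4, a target of BMP signals, from 13.3 ± 6.95 to 3.11 ± 0.883 CPM (adjusted p = 0.000615 and 0.00269).

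Of 18 tested FGF and PDGF genes 2 rose and 6 fell (median -0.42). Over both sexes Etv4 and Etv5, transcription factors induced by FGF, and the feedback inhibitors Spry4 and Dusp6 fell. Etv4 was 4.38 and 3.77 CPM in the XX WT libraries, 28.3 and 27.6 CPM in their XY counterparts and 0.222 to 0.543 CPM in the -KTS KO (-4.90 ± 0.40, adjusted p = 1.34e-05). Spry4 was 0.993 and 0.680 CPM in the XX WT libraries, 7.76 and 8.17 CPM in their XY counterparts and 0.392 to 0.669 CPM in the -KTS KO. The fall was 4.16 in XY (adjusted p = 4.8e-05), and the XX value of -0.33 did not pass (adjusted p = 0.758). The difference between the sexes passed (-3.84 ± 0.60, adjusted p = 0.0155), in 9 of 14 alternative settings. Dusp6 was 4.38 and 8.10 CPM in XX WT against 6.25 and 4.59 CPM in the XX -KTS KO, where it did not pass (-0.22, adjusted p = 0.844), and fell by 2.64 in XY (adjusted p = 0.00191). Pdgfa rose by 0.68 (adjusted p = 0.016) and passed in 11 of 15 alternative settings.

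Of 17 tested Notch genes 6 rose and 1 fell (median 0.35). The one that fell was Lfng, a glycosyltransferase that tunes Notch receptors, with 6.04, 5.32, 11.2 and 11.8 CPM in WT and 0.0357 to 0.354 CPM in the -KTS KO (-5.51 ± 0.31, adjusted p = 2.4e-07). Hey1, a Notch target, rose from 10.5 ± 3.14 to 22.3 ± 4.08 CPM (adjusted p = 0.001). Of 17 tested retinoic acid genes besides Aldh1a2, 7 rose and 1 fell (median 0.29). Dhrs3, which reduces retinal, rose from 16.2 ± 1.96 to 31.7 ± 4.79 CPM (adjusted p = 8.64e-05). The receptor Rarb, itself induced by retinoic acid, rose by 1.78 (adjusted p = 0.0357), but in only 7 of 15 alternative settings. Crabp1, a carrier of retinoic acid, fell by 1.87 (adjusted p = 0.0218) and passed in 11 of 15.

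**Figure D4:**
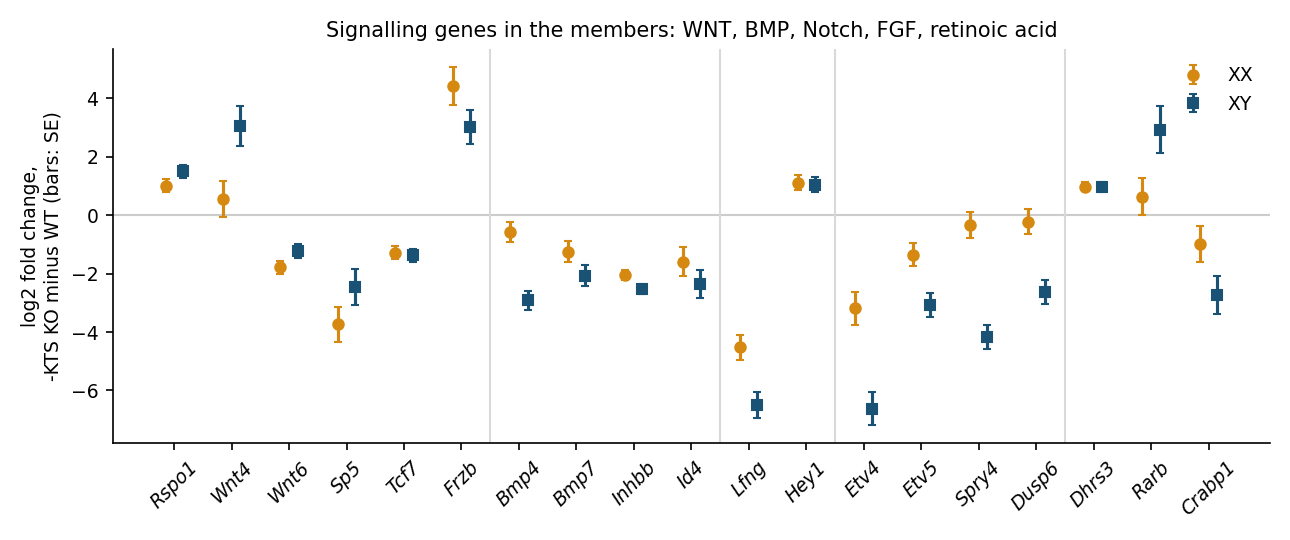
Log2 fold change of 19 signalling genes in the summed members, -KTS KO against WT, in XX (circles) and XY (squares) with SE bars, grouped from left to right as WNT, BMP, Notch, FGF and retinoic acid. Inhbb, Lfng, Etv4 and Sp5 lie below -2 in both sexes, whereas Spry4 lies at -0.33 in XX and -4.16 in XY.

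Of 25 tested keratin, uroplakin and junction genes 10 rose and 3 fell (median 0.25), against 10.6% higher and 11.2% lower over all genes. Cldn11, a claudin, rose from 0.388 ± 0.270 to 4.26 ± 1.16 CPM and Upk3bl, a relative of Upk3b, from 0.226 ± 0.257 to 1.48 ± 0.534 CPM (adjusted p = 0.00131 and 0.00102). Dsc2, a desmosomal cadherin, fell from 9.99 ± 4.58 to 3.09 ± 0.673 CPM (adjusted p = 0.0036). Of 36 tested matrix genes 7 rose and 12 fell (median -0.05). Lama1, a laminin chain of basement membranes, was 17.0, 17.3, 11.3 and 16.2 CPM in WT and 2.71 to 3.06 CPM in the -KTS KO, a fall of 5.23-fold (adjusted p = 9.54e-07). Fn1, fibronectin, fell from 63.3 ± 25.2 to 21.7 ± 6.36 CPM (adjusted p = 0.000414). Col1a1 and Postn rose, with adjusted p = 0.0133 and 0.0298, and passed in 11 and 7 of 15 alternative settings.

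Of 14 tested genes of epithelial-mesenchymal transition 5 rose and 4 fell (median 0.21), against 10.6% higher and 11.2% lower over all genes. The mesenchymal transcription factors Twist2, Prrx1 and Foxc1 rose, to 5.48 ± 2.54, 10.5 ± 4.95 and 12 ± 3.71 CPM from 0.640 ± 0.0711, 2.19 ± 1.06 and 2.45 ± 0.809 CPM (adjusted p = 5.51e-05, 0.000791 and 0.000422). The 10 genes of interstitial progenitors, the mesenchymal cells beneath this layer, summed to 844 to 1863 CPM in WT and 958 to 1366 CPM in the -KTS KO, and their part in these values was not tested. The list holds Pdgfra, which the thresholds limit. It also holds Tcf21, listed as a coelomic epithelial gene as well, with 449 CPM in the WT and 329 CPM in the -KTS KO members. The sum therefore does not measure interstitial RNA alone. Of 23 tested gonad transcription factors 7 rose and 3 fell (median 0.30). Meis2, a homeobox factor, was 77.0, 90.2, 73.1 and 91.4 CPM in WT and 215, 194, 164 and 231 CPM in the -KTS KO (adjusted p = 0.000482). Mef2c, a MADS box factor, was 50.6 and 67.7 CPM in XY WT, 12 and 10.4 CPM in XX WT and 2.91 to 4.56 CPM in the -KTS KO, a fall over both sexes (adjusted p = 2.28e-07).

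RNA of Sertoli cells, supporting cells that arise from this layer, was lower in the -KTS KO members than in the XY WT members. Of 7 Sertoli genes 6 fell over both sexes and 1, Mro, rose. The same number fell within XY, whereas within XX 1 fell, 1 rose and 5 did not pass. Sox9, the factor that sets the Sertoli fate, was 39.7 and 53.8 CPM in XY WT, 1.90 and 5.38 CPM in XX WT and 2.81 to 8.27 CPM in the -KTS KO. It passed over both sexes (adjusted p = 0.0202) and within XY (-2.60, adjusted p = 0.00428), the former in 8 of 15 alternative settings. Amh was 37.6 and 15.2 CPM in XY WT, 0.165 and 0.247 CPM in XX WT and 0.178 to 0.543 CPM in the -KTS KO libraries, so that XX WT and the -KTS KO overlapped. The Sertoli list summed to 19.0 to 324 CPM in the WT libraries and 11.7 to 19.2 CPM in the -KTS KO libraries. Of 6 pre-supporting genes 1, Wnt4, rose, 2, Wnt6 and Nr0b1, fell and 3 did not pass, and their sum was 270 ± 69.5 CPM in WT and 310 ± 54.1 CPM in the -KTS KO. Of 6 pre-granulosa genes 5 did not pass, with 5 values above 0 in XY and none in XX. Foxl2 passed over both sexes, with 69 UMIs in WT and 3 in the -KTS KO, a ratio of 45 (95% counting interval 14.8 to 223), and did so in 12 of 14 alternative settings. Sertoli RNA was not confined to the members. Amh was 38.0 and 15.8 CPM in Pdgfra-positive cells of the XY WT libraries (at least 3 UMIs of Pdgfra and none of Upk3b). On the same scale it was 39.3 and 15.7 CPM in the members. Aard was 142 and 163 CPM in those cells and 105 and 80.2 CPM in the members. For 0 of 7 Sertoli genes did the genotype effect differ between both populations beyond the test, against 6.55% of all tested genes. With so few genes this count does not show that the effects were equal. How far free RNA of neighbouring Sertoli or pre-granulosa cells contributed to these values was not tested. Sry, named after its values were seen, had 0 UMIs in the WT members and 0.266 and 0.428 CPM in the XY -KTS KO members (18 UMIs in all) and was too low for the test.

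Markers of other cells were read in the same sums. Their counts stand against 10.6% of all genes higher and 11.2% lower in the -KTS KO, and lists this short are not told apart from those shares. The endothelial list summed to 37.0 to 75.2 CPM in WT and 16.5 to 30.7 CPM in the -KTS KO, with Kdr and Esam lower among 6 genes (adjusted p = 0.0117 and 0.0174), the latter in 9 of 14 alternative settings. The immune list summed to at most 8.93 CPM in WT and 7.79 CPM in the -KTS KO, and the germ list to 14.7 to 29.8 and 9.16 to 39.8 CPM. Of 5 tested germ genes 1, Dnd1, fell (-1.49 on the log2 scale, adjusted p = 0.000408). The thresholds themselves limit Dppa5a, Pou5f1, Ddx4 and Dazl of the germ list, so its sum and their tests are not read as results. The erythroid list summed to 708 to 2113 CPM in WT and 720 to 3060 CPM in the -KTS KO. Of 10 tested interstitial progenitor genes 2, Maf and Nr2f1, rose, though they passed in only 8 and 5 of 15 alternative settings (median -0.02). The 1 other gene past the test was Pdgfra, whose level the thresholds themselves limit, so its fall is not read as a result. Of 5 tested perivascular genes 1, Cspg4, fell, passing in 14 of 15 alternative settings, and the list summed to 18.1 to 27.2 CPM in WT and 13.4 to 20.04 CPM in the -KTS KO. Of 3 tested fetal Leydig genes 1 rose, Star, which carries cholesterol into mitochondria (1.09, adjusted p = 0.00106), and 1 fell, Cyp11a1, which makes pregnenolone (-2.40, adjusted p = 0.00114). With doublets left out, the difference in Cyp11a1 was -0.79 and did not pass (adjusted p = 0.368). That list summed to 8.59 to 26.9 CPM in WT and 23.6 to 34.6 CPM in the -KTS KO. The 3 tested mesonephric genes, Pax2, Pax8 and Epcam, had adjusted p from 0.0788 to 0.896 and did not pass. Their part in the results was not tested. Of 20 immediate early and heat shock genes 2 passed, against 21.7% of all genes, and both, Hspb1 and Hsp90aa1, fell.

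Fewer genes passed the test between the sexes in the -KTS KO members than in the WT members. In WT, 599 genes differed between XY and XX members (4.22% of those tested, 2.82% higher and 1.4% lower in XY), of which 575 were autosomal. The number was 205 without XX WT replicate 1, 162 without XX WT replicate 2 and 186 without XY WT replicate 1. In the -KTS KO, 6 genes did (0.0423%, 0.0353% higher and 0.00705% lower in XY), and 5 of them were Xist and the Y-linked Kdm5d, Eif2s3y, Uty and Ddx3y. The sixth, Gmds, a GDP-mannose dehydratase, was 27.4 and 32.8 CPM in XY and 11.3 and 8.54 CPM in XX (adjusted p = 0.00374), and it passed in 13 of 15 alternative settings. With no filter on low counts, 184 genes were called in the -KTS KO and 1278 in WT. All 7 Sertoli genes were higher in XY than in XX among the WT members. How far free RNA of Sertoli cells contributed to the WT contrast, and to the genes chosen by it, was not tested.

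The difference between the effects of the genotype in XY and XX was tested itself. It passed for 103 genes (0.726%), 100 of them autosomal, with 31 higher (0.219%) and 72 lower (0.508%) in XY, but for 14 genes after thinning. Over the 575 autosomal genes chosen by the WT contrast, the median size of the XY to XX difference was 1.64 on the log2 scale in WT and 0.22 in the -KTS KO, against 0.22 and 0.16 over all autosomal genes. Tesc, a calcium-binding protein, was 49.0 and 37.7 CPM in XY WT, 1.57 and 2.35 CPM in XX WT and 1.28 to 2.04 CPM in the -KTS KO libraries of both sexes. The difference of effects was -4.49 ± 0.41 (adjusted p = 0.00108). Cgn, the junction protein cingulin, was 22.7 and 28.9 CPM in the XX WT libraries, 3.88 and 5.82 CPM in their XY counterparts and 15.6 to 18.9 CPM in the -KTS KO (2.40 ± 0.29, adjusted p = 0.00429). Its -KTS KO values lay between those of the WT sexes. Spp1, osteopontin, did as well: it was 57.1 and 72.3 CPM in XY WT, 3.06 and 2.47 CPM in the XX WT libraries, and the -KTS KO libraries held 37.5 and 29.2 CPM in XY and 12.4 and 17.8 CPM in XX (-3.41 ± 0.42, adjusted p = 0.00531).

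**Figure D5:**
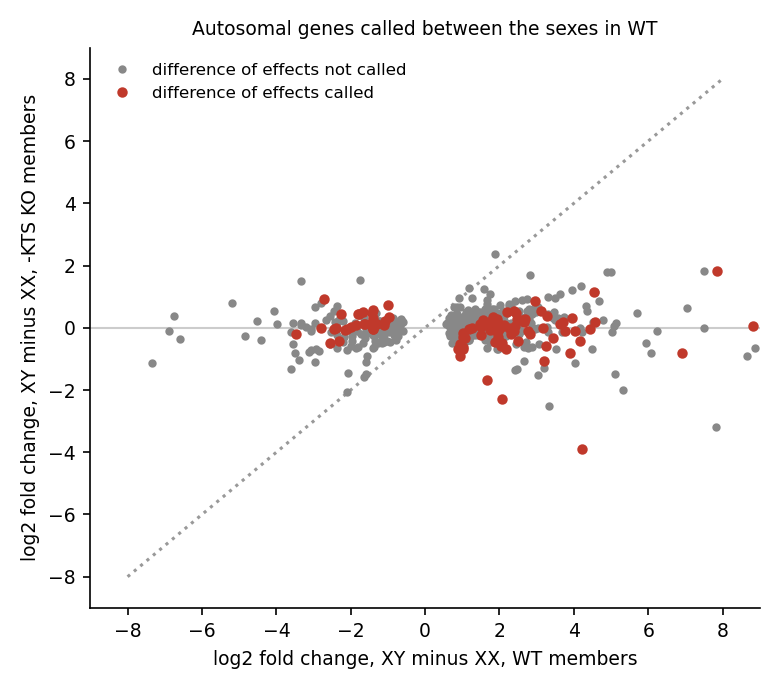
Log2 fold change between XY and XX members in WT (horizontal axis) and in the -KTS KO (vertical axis) for the 575 autosomal genes that passed the test in WT, with the genes whose difference of effects passed in red and a dotted line of equal change. The WT values chose the genes, and their median size was 1.64 in WT and 0.22 in the -KTS KO.

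Whether the change belonged to the members was tested against Pdgfra-positive cells (at least 3 UMIs of Pdgfra and none of Upk3b) of the same libraries. The genotype effect differed between both populations for 924 of 14114 genes (6.55%), higher in members for 3.73% and lower for 2.82%. Without XX WT replicate 2, XY WT replicate 1 or XY -KTS KO replicate 2 the number was 579, 605 or 543. In simulated data for this comparison 8.70% of the calls were genes left unchanged. Sox6, a SOX transcription factor, was 29.9 CPM in WT and 26.2 CPM in -KTS KO members, whereas it was 41.2 and 6.09 CPM in the Pdgfra-positive cells (difference 2.56, adjusted p = 7.2e-11). Zfp385b, a zinc finger gene, was 5.58 and 49.6 CPM in members and 10.4 and 14.1 CPM in Pdgfra-positive cells (2.62, adjusted p = 8.21e-09). Mpped2 went the other way, with 19.5 and 30.1 CPM in members and 6.98 and 50.3 CPM in Pdgfra-positive cells (-2.24, adjusted p = 1.38e-08). Wfdc10 was 3.08 and 128 CPM in members and 8.74 and 238 CPM in Pdgfra-positive cells, and its difference did not pass (0.78, adjusted p = 0.328). Of 24 G2 and M phase genes the genotype effect differed for 1, which was lower in members. Of 24 S phase genes it was higher in members for 5. Ccnd2 was 174 to 275 CPM in the Pdgfra-positive cells of the WT libraries and 49.5 to 87.9 CPM in those of the -KTS KO. Ccnd1 was 50.2 to 103 and 14.6 to 25.9 CPM there. Of the largest rises and falls in members, Capn6 and Aqp5 also shifted the same way in these cells. Capn6 was 25.3 to 35.1 CPM in WT and 127 to 144 CPM in the -KTS KO, and Aqp5 10.8 to 54.9 and 0 to 0.239 CPM. Such shifts are not read as traits of the members alone, whereas that of Zfp385b differed between both populations.

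Against the same cells of the +KTS KO, 3689 genes differed (26%), with 12.2% higher and 13.8% lower in the -KTS KO. The +KTS KO is not a control with normal -KTS: the paper reports more -KTS transcript in its gonads than in controls. This comparison shares its -KTS KO libraries with the one against WT. Of 24 S phase genes 18 were lower in the -KTS KO than in the +KTS KO, and of 24 G2 and M phase genes 5 were. The G2 and M phase list summed to 2191 to 2866 CPM in the +KTS KO members, below its 2997 to 4040 CPM in WT. The S phase list summed to 1954 to 2282 CPM in the +KTS KO and 2153 to 2381 CPM in WT. Neither sum was tested. Muc16 was 23.9 ± 4.39 CPM in the +KTS KO members (SD, n = 4), Krt7 221 ± 16.6 CPM and Lfng 16.1 ± 2.57 CPM, each above its WT mean of 11.8 ± 2.02, 118 ± 25.4 and 8.57 ± 3.37 CPM, a comparison that was not tested. Rspo1 was 212 ± 43.6 CPM there and did not differ from the -KTS KO beyond the test (0.29, adjusted p = 0.182). Cd55, a complement regulator, was 0.859 ± 0.189 CPM in the +KTS KO, 17.0 ± 10.9 CPM in WT and 90.1 ± 38.2 CPM in the -KTS KO (-KTS KO against +KTS KO 6.62 on the log2 scale, adjusted p = 1.01e-09).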

How the data were processed

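Files of 12 libraries, 2 per group, held UMI counts per gene and barcode that the authors deposited as raw counts. They were made with Cell Ranger 6.0 on mm10 per the submitters' processing notes, with 32285 features per library. The labels name kit version 2 and the methods version 3. Library totals ran from 108111924 to 147968666 UMIs, and sums over the members from 7869873 to 27492698 UMIs, so intervals and floors cover counting error only. Members and gene lists were chosen with earlier results of these data known.

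Cells under 1000 detected genes or above 10% mitochondrial UMIs were dropped. Doublets were scored with Scrublet in scanpy 1.11.5 and left out in an alternative only. Raw counts were summed over the members of each library and tested with edgeR 4.0.16 in R 4.3.3 (quasi-likelihood test, 6 groups, TMM, filterByExpr, Benjamini-Hochberg adjusted p under 0.05). The libraries are the replicates. The labels do not say that they came from separate embryos, although the study's sample list gives each its own entry, and p-values measure the spread between libraries. Members and Pdgfra-positive cells were compared with library as a block. Shares were compared by exact permutation in scipy 1.17.1. Of the member barcodes, 22 were also members in another library.

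Named genes were the genes of the thresholds, the 4 largest called genes per list with all genes over 5 CPM of lists up to 8 genes, the 12 largest rises and falls without overlap at 20 CPM, the 5 largest per direction of the sex and +KTS KO comparisons and the 6 largest per direction of the Pdgfra comparison. In 5 simulated draws per comparison, 200 genes were changed each time, fewer than were called in the data. The draws held no effect shared by the cells of a library. With 14182 genes in the -KTS KO to WT comparison, 32.8% of the genes changed 1.5-fold were recovered. For those changed 2-fold it was 70.8% and for those changed 4-fold 91.2%, and 4.99% of the calls were genes left unchanged. For members against Pdgfra-positive cells, with 14114 genes, these were 46.0%, 65.7%, 83.9% and 8.70%. Alternatives used DESeq2 1.42.0, no low-count filter, a replicate block, doublets left out, cells thinned to 5000 UMIs, Upk3b of at least 4 UMIs, the WT and -KTS KO libraries only, and each of the 8 WT and -KTS KO libraries left out. Annotation came from GENCODE vM21. Some genes that met the rule for named genes are not reported here.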

Additional observations from a re-analysis of the deposited data

Results flagged for a closer look

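In a library far from the other 3 of its genotype, the gap to the nearest library divided by the whole range exceeded the critical value in 11 of 266 groups, where chance gives about 1 in 20, or 13.3. In WT these ratios were 0.993 for the share of members (XY WT replicate 2 at 6.97%), 0.923 for Hbb-bh1, 0.896 for Hey1 and 0.927 for Mcm5. In the -KTS KO they were 0.848 for Acta2, 0.881 for Amh, 0.888 for Dppa5a, 0.867 for Maf, 0.939 for Mpped2, 0.855 for Rarb and 0.962 for Sprr2d.

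The effect of the -KTS KO differed between the sexes, by the test of the difference itself, for 15 of the named genes. The XY effect minus the XX effect on the log2 scale was -7.74 for Amh, -2.52 for Aqp5, -2.33 for Bmp4, -4.36 for Cbln1, -3.52 for Inka1, -1.88 for Mef2c, -3.41 for Spp1, -3.84 for Spry4 and -4.49 for Tesc. It was 2.70 for Calb1, 2.40 for Cgn, 2.42 for Dcaf12l1, 3.62 for Gbp2b, 1.60 for Lbx2 and 3.25 for Vsnl1. Most of these calls did not hold in every alternative setting. The difference passed in 4 of 15 for Calb1, 5 for Aqp5, Lbx2 and Vsnl1, 7 for Gbp2b, 8 for Bmp4 and Cbln1, 11 for Mef2c, 12 for Dcaf12l1 and Spp1 and 14 for Cgn and Inka1, and in 9 of 14 for Spry4, 12 for Amh and 14 for Tesc. Inka1 was 38.3 and 31.3 CPM in XY WT, 2.23 and 3.28 CPM in XX WT and 4.85 to 9.10 CPM in the -KTS KO. Cbln1 was 50.7 and 45.2 CPM in XY WT, 2.23 and 1.85 CPM in XX WT and 16.0 to 33.5 CPM in the -KTS KO.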

How the results depend on the processing

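After cells were thinned to 5000 UMIs the number of genes past the test was 1290 for -KTS KO against WT over both sexes (3081 without thinning), 331 in XX (1040), 788 in XY (2107), 14 for the difference between the sexes (103), 141 for XY against XX in WT (599), 1473 for -KTS KO against +KTS KO (3689) and 153 for members against Pdgfra-positive cells (924). Thinning also leaves fewer UMIs per library. Without a filter on low counts it was 1877 in XX, 677 for the difference between the sexes, 184 for XY against XX in the -KTS KO (6 with the filter) and 1278 in WT. DESeq2 gave 272 for the difference between the sexes and 16 for XY against XX in the -KTS KO. The WT and -KTS KO libraries alone gave 246 for the difference between the sexes, and the stricter Upk3b threshold gave 63. A stricter Pdgfra gate gave 367 for members against Pdgfra-positive cells. The cause was not tested. The only reversal was Lbhd2 between members and Pdgfra-positive cells, at 0.054 after thinning against -2.44.

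With each of the 8 WT and -KTS KO libraries left out in turn, and no +KTS KO library left out, the counts ran from 2135 to 2595 over both sexes, 430 to 1002 in XX, 1026 to 1885 in XY, 16 to 85 for the difference between the sexes, 6 to 9 for XY against XX in the -KTS KO, 162 to 558 in WT, 2900 to 3705 against the +KTS KO and 543 to 766 for the Pdgfra comparison. A lone library was assumed to vary like the other groups. Counts moved by over 1.5 times without any single library of the sex tested in XX and in XY, and without any WT or -KTS KO library but XY WT replicate 2 for the difference between the sexes. They did so for XY against XX in WT without XX WT replicate 1 (205), XX WT replicate 2 (162) or XY WT replicate 1 (186), and for the Pdgfra comparison without XX WT replicate 2 (579), XY WT replicate 1 (605) or XY -KTS KO replicate 2 (543). The difference in share ran from 9.25 to 11.7 points, each with an exact permutation p of 0.0571, the smallest that 3 against 4 libraries allow. Same-numbered libraries deviated together, with a correlation over 0.1, in 9 of 15 pairs of groups and in 5 of 6 among WT and -KTS KO (-0.02 to 0.50), but not in all (lowest -0.39), so the numbers were not taken to pair them. With the replicate block, 2967 genes passed over both sexes and 101 for the difference between the sexes. Krt18 and Emx2 were among the named results that no longer passed (adjusted p = 0.0544 and 0.0589). Of 146 named results past the test, 93 kept their call in every alternative and 53 lost it in at least 1. Tests of 2 libraries a group limit the comparisons within a sex.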
